A study of Mus musculus with 11 samples.

Results

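The 10 claudin genes *Cldn1*, *Cldn2*, *Cldn3*, *Cldn4*, *Cldn5*, *Cldn7*, *Cldn8*, *Cldn10*, *Cldn16* and *Cldn19* were followed along the mouse nephron, in failed-repair tubular cells and in the endothelium. They were listed by symbol and not picked by a measured value, but earlier results of these data were known when they were chosen. They are 10 of the 28692 genes in the count tables. A further 25 genes in the tables have symbols that begin with Cldn. Single-cell RNA sequencing with 10x Genomics 3′ chemistry counted unique molecular identifiers (UMIs), the tags that mark single captured mRNA molecules, in 11 kidney libraries. The 5 control libraries (Ctrl, N1, N2, AN1 and AN2) came from naive kidneys, 3 libraries (UIR, UIR1 and UIR2) from kidneys after unilateral ischemia-reperfusion, and 3 (UUO, UUO1 and UUO2) from kidneys after unilateral ureteral obstruction. All animals were male C57Bl/6 mice of 10 weeks. In the UIR model the left renal pedicle was clamped for 30 minutes, in the UUO model the left ureter was ligated without release, and both were studied on day 28, so the libraries describe late injury and not its onset. The libraries named without a number in each injury model are called unnumbered here.

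Claudins are membrane proteins of the tight junction, the strand that seals neighboring epithelial cells and sets which ions pass between them. Each nephron segment is known for its own set. Claudin-2 forms a cation and water pore in the proximal tubule, the variants of claudin-10 form cation or anion pores in the thick ascending limb and the proximal tubule, and claudin-16 and claudin-19 act together in the reabsorption of magnesium and calcium in the thick ascending limb. Claudin-3, claudin-4, claudin-7 and claudin-8 belong to the distal nephron and collecting duct, where claudin-4 and claudin-8 are known for chloride permeability. Claudin-5 is the sealing claudin of endothelium and is also made by podocytes, and claudin-1 is a sealing claudin best known from skin and from the parietal cells of Bowman's capsule.

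Cells were grouped into classes from marker genes, with all claudins and other tight junction genes left out of the clustering. The classes were proximal tubule (PT)-like, thin limb-like, thick ascending limb (TAL)-like, distal convoluted tubule (DCT)-like, connecting tubule (CNT)-like, principal cell (PC)-like, intercalated cell (IC)-like, failed-repair tubular epithelial cell (frTEC)-like, podocyte-like and endothelium-like, and are named below without the suffix. They held 20793 of 40596 kept cells. Levels are given as CPM, the UMIs of a gene per 1000000 UMIs of all genes after summing all cells of a class in a library. Since longer or more easily captured transcripts are not corrected for, a level is compared for the same gene between classes and not between genes. The mean over libraries is given with its SD.

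The libraries differed in ways that went with the groups. Total UMIs per library ran from 49503312 to 117043590, and 1858 to 7443 cells were kept. Of the called barcodes, 56.9 to 79.0% in control, 23.8 to 37.4% in UIR and 3.15 to 8.004% in UUO libraries had over 30% mitochondrial UMIs and were left out. Median mitochondrial content of kept TAL cells was 21.2% in control, 10.4% in UIR and 8.44% in UUO, and their median depth was 4641, 10657.5 and 12565 UMIs. Whether these differences carry part of the changes below was not tested, and the 3 control naming series (Ctrl, N and AN) hold controls only, so series and group cannot be told apart. Libraries shared at most 0.305% of their cell barcodes.

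The class names held for most but not all pools. Summed DCT markers in the DCT class fell from 4074 to 6939 CPM in control libraries to 1565 to 2299 in UIR and 561 to 886 in UUO, while summed PC markers rose from 63.3 to 197 CPM to 1305 to 1470 and 833 to 1735. In UUO the PC markers were on average above the DCT markers, which goes against the name, and the class held 243 of its 244 control cells in a different cluster from most of its injured cells (280 of 310 in UIR, 218 of 228 in UUO). At a clustering resolution of 2, none of the cells of the latter cluster kept the DCT name: 276 were called CNT, 214 PC and 7 TAL, and 2 were unnamed. Members called in this class are therefore also given with DCT and CNT cells in 1 class, which still holds the cells called PC at that resolution. UUO left 12 CNT cells in all, too few for a test. The frTEC class had 20 control cells over 5 libraries, 288 in UIR and 202 in UUO, and was tested between the injury models alone. One of its clusters was led by *Tagln* and is described apart.

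In control kidneys the members divided the nephron between them. *Cldn10* was highest in TAL, at 591 ± 122 CPM (SD, n = 5 libraries), followed by PT at 270 ± 26.9, with no overlap between the libraries of the 2 classes. PC stood next at 15.8 ± 20.6 CPM, where 1 library (N2) at 52.7 CPM lay far from the other 4, at 5.59 to 7.56 CPM. *Cldn2* was measured mainly in thin limb, at 201 ± 23.9 CPM (n = 2 libraries with at least 20 cells), and PT, at 153 ± 20.3. The thin limb values of 218 and 184 CPM lay above all 5 PT values, although only by a small margin over the highest PT library at 179. The thin limb class was made of 2 unlike clusters, with *Cldn2* at 235 CPM in 66 control cells and at 22.1 CPM in 23. Every other class with control pools of at least 20 cells held *Cldn2* at 5.26 CPM or less on average, which is within the level in macrophages (9.13 CPM), cells that should lack it.

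*Cldn16* was the member most restricted to 1 class, with 157 ± 28.6 CPM in TAL (n = 5) and 2.27 CPM in CNT, the next, a 69.3-fold difference. *Cldn19* was highest in TAL as well, at 205 ± 55.8 CPM, but the thin limb also held it, at 114 ± 4.66 (n = 2), below each of the TAL libraries. The thin limb class carried few TAL markers in control, with a summed level of 157 to 288 CPM against 23719 to 30765 in TAL itself. The thin limb thus held *Cldn19* with next to none of *Cldn16*, the gene of its partner protein.

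The 4 distal members formed graded profiles. *Cldn8* was highest in PC at 601 ± 90.8 CPM, above thin limb at 410 ± 7.59, IC at 364 ± 96.6, CNT at 259 ± 47.2 and DCT at 215 ± 24.2, whose neighbors overlapped, and TAL followed at 107 ± 17.0. *Cldn7* had the same ends, with PC at 283 ± 22.7, IC at 264 ± 40.6 and thin limb at 215 ± 18.2, then CNT at 136 ± 27.4, DCT at 116 ± 26.1 and TAL at 89.5 ± 25.5 CPM. Neighbors in this *Cldn7* order overlapped, except that there was no overlap between thin limb and CNT. *Cldn4* was near 50 to 70 CPM in PC (68.9 ± 6.47), CNT (63.7 ± 14.8), IC (51.3 ± 24.6) and thin limb (50.6 ± 37.3), whose libraries overlapped, and dropped to 9.60 ± 3.84 in DCT and 1.07 ± 1.47 in TAL. *Cldn3* was low throughout, from 44.7 ± 5.27 CPM in PC to 8.80 ± 5.38 in DCT, and no neighbors in its order were apart.

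*Cldn5* was a gene of podocytes and endothelium, at 1314 ± 79.0 and 389 ± 214 CPM with no overlap, and the next class was CNT at 0.785 CPM. Among control classes with pools of at least 20 cells *Cldn1* was low throughout, the highest being PT at 5.21 ± 0.948 CPM, followed by podocytes at 3.08 ± 2.04. Over all 10 members, 17 of 80 neighboring pairs of classes had libraries that did not overlap. These levels describe the classes and carry no test, as cells were grouped by genes correlated with them.

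**Figure D1:**
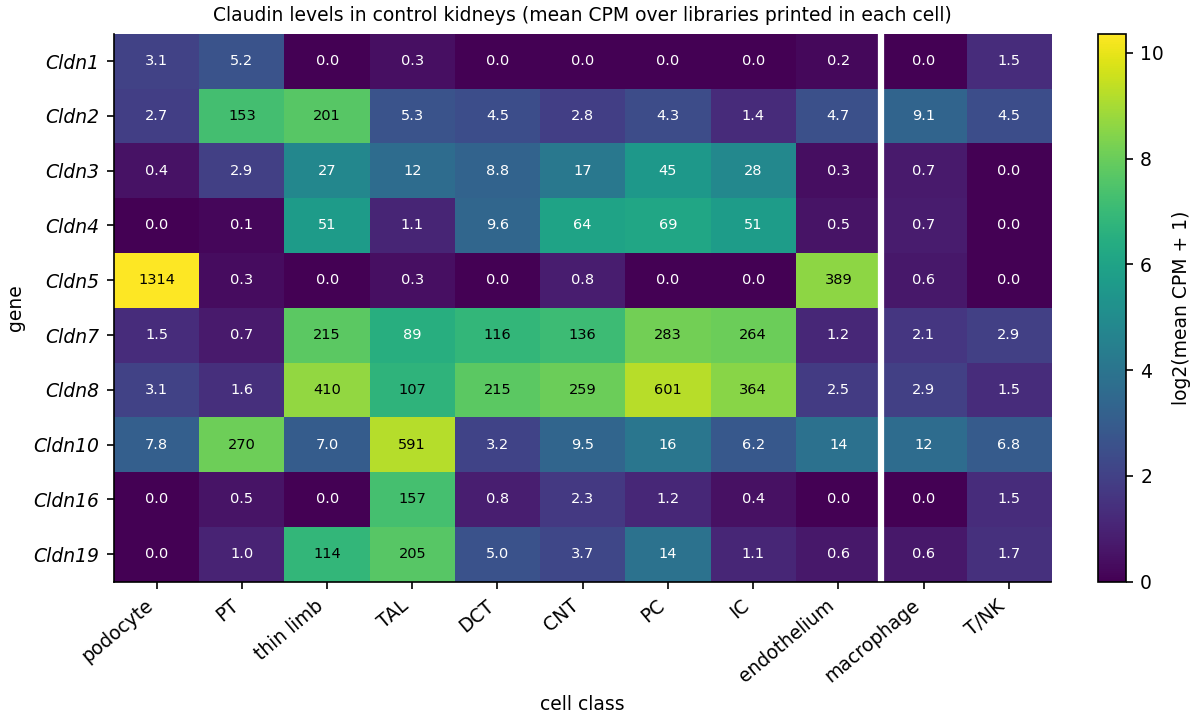
Mean level in control libraries (CPM, printed in each cell, with color on a log2(CPM + 1) scale) of the 10 claudins in 9 epithelial and endothelial classes, with macrophages and T/NK cells as classes in which UMIs of these genes come from free RNA. *Cldn16* stands out in TAL at 157 CPM, *Cldn2* in thin limb and PT at 201 and 153, *Cldn5* in podocytes and endothelium at 1314 and 389, and the distal members run from PC to TAL.

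Over 14 control classes, immune and stromal classes included, the genes with the most similar profile were described by Pearson's r of log2(CPM + 1) among 12956 genes. These classes share libraries and depth, and the values are a description. *Cldn7* and *Cldn8* were close to each other (r = 0.993). *Cldn3* was nearest to *BC021891* (0.989), *Elf3*, an epithelial transcription factor (0.982), and *Tmem30b* (0.975), and *Cldn8* was close to *Tmem30b* (0.977) and *Grhl2*, another epithelial transcription factor (0.977). *Cldn16* was nearest to *Tmem207* (0.966), its neighbor on the chromosome, and *Pappa2* (0.961). The nearest genes to *Cldn4* were *Mfsd6l* (0.975), the keratin *Krt18* (0.971) and the zinc receptor *Gpr39* (0.965). *Cldn5* was nearest to *Arhgef26* (0.979), and lower values were found for *Cldn19* with *Egfl6* (0.945), *Cldn2* with *Galnt14* (0.930), *Cldn10* with *Car4* (0.918) and *Cldn1* with *Kif22* (0.851), the last at low counts.

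After injury the distal claudins *Cldn3*, *Cldn4* and *Cldn7* rose in TAL, the DCT class, PC and IC in both models, and in CNT in UIR, since CNT could not be tested in UUO. Over 9 classes, UIR was tested against control in 48 pairs of member and class that passed the filter on low counts (a filter that a pair can pass through its higher group alone), of which 24 rose, 2 fell and 22 did not pass, where 9.35% of all gene tests rose and 7.95% fell. For UUO, 21 of 44 pairs over 8 classes rose, 8 fell and 15 did not pass, where 12.8% of all gene tests rose and 11.7% fell. Of these rises, 20 of the 24 in UIR and 17 of the 21 in UUO were of *Cldn3*, *Cldn4* or *Cldn7*. Among them was *Cldn4* in PT, which gave no value in either model with free RNA subtracted and whose UUO level is not shown to be above background. Both models were set against the same 5 control libraries, so their changes are not independent. All p-values are from edgeR's quasi-likelihood test on summed counts, adjusted over all genes of the class by Benjamini-Hochberg, and each log2 change is given with a standard error derived from its F statistic. They measure the spread between libraries, whose numbers match the 5 naive mice and the 3 mice per model given in the study's methods.

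The promoters of these 3 genes are shown because the genes moved together. *Cldn3* (chr5:134986214-134987472, plus strand) and *Cldn4* (chr5:134945119-134946934, minus strand) are neighbors, 39279 bases apart on opposite strands with 0 protein-coding genes between them, while *Cldn7* lies on another chromosome (chr11:69964779-69967885, plus strand) and has 2 annotated starts. The 250 bases before each start are given 5′ to 3′ on the strand of the gene, from RefSeq on GRCm38.p6, with capitals marking CACCTG (an E-box that Snail and Zeb factors can bind) or GGGCGG (a GC box of Sp and Klf factors) on either strand. AACNGGTT, the motif of the grainyhead factors, was also searched, and 0 of the 4 windows hold it, against 1.79% of all windows.
Cldn3, chr5:134985964-134986213 (+): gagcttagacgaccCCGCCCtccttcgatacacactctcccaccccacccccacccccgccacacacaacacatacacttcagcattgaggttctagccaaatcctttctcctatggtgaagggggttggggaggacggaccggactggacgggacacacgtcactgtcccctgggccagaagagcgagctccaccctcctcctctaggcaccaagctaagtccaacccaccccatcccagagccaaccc
Cldn4, chr5:134946935-134947184 (-): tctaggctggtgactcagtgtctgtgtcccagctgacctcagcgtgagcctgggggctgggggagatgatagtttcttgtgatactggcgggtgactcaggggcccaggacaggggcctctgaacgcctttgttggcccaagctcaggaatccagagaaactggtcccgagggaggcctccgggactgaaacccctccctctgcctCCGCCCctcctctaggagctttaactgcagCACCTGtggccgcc
Cldn7, start 1, chr11:69964529-69964778 (+): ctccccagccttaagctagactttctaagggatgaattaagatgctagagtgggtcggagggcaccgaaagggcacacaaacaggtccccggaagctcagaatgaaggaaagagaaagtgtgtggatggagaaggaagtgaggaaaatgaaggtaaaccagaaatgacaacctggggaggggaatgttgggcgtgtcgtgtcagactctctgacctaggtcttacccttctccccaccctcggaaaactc
Cldn7, start 2, chr11:69965171-69965420 (+): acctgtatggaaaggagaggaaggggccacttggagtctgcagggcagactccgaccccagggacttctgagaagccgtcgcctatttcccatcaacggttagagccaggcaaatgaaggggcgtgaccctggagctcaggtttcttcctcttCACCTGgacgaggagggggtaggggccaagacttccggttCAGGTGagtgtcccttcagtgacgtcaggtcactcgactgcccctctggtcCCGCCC

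A GC box was held by *Cldn3* (236 bases before the start), *Cldn4* (44) and the second start of *Cldn7* (6), and 32.7% of the 32851 RefSeq promoter windows of that length hold one. CACCTG was held by *Cldn4* (14 bases before the start) and by the second start of *Cldn7* (97 and 57), against 17.2% of all windows, and *Cldn3* held none. *Cldn4* also held 2 matches to TGANTCA, the AP-1 motif (240 and 158 bases before the start), which 6.75% of windows hold, and the first start of *Cldn7* held 1 match to GGAATG, a TEAD motif, which 12.6% hold. These are matches of letters and describe the windows alone. RefSeq entries were found for 9 of the 10 members.

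In UIR *Cldn3* changed most in TAL. Its level was 6.83, 13.8, 7.98, 18.9 and 10.7 CPM in the control libraries Ctrl, N1, N2, AN1 and AN2, then 370.1, 282 and 313 in UIR, UIR1 and UIR2, and 379.9, 347 and 378 in UUO, UUO1 and UUO2. The lowest injured library, at 282 CPM, was thus far above the highest control library at 18.9. The log2 change was 4.64 ± 0.23 in UIR (adjusted p = 1.5e-13), a 24.98-fold fit, and 4.83 ± 0.23 in UUO (adjusted p = 4.4e-14), a 28.5-fold fit. In cells thinned to 1000 UMIs each, 0.749% of 267 control TAL cells held a *Cldn3* UMI, against 23.3% of 1299 in UIR and 26.4% of 769 in UUO, and without thinning the shares were 6.62, 71.5 and 76.6%. Macrophages thinned the same way gave 0, 0.3003 and 0.316%. The numbers of shallower TAL cells left out were 35, 89 and 57.

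*Cldn4* was all but absent from control TAL, with 0, 0, 0, 2.70 and 2.67 CPM, and was 60.7, 57.4 and 58.0 CPM in UIR and 120.5, 76.7 and 90.2 in UUO. The control libraries together held so few *Cldn4* UMIs that the change is given as a ratio of summed counts with a 95% interval for counting error, which was 56.3 (15.6 to 465) for UIR and 93.0 (25.7 to 769) for UUO (adjusted p = 6.5e-09 and 1.1e-10). *Cldn7*, already present in control TAL at 94.0, 64.6, 119.7, 62.1 and 107 CPM, reached 581, 448 and 502 in UIR and 607, 482 and 481 in UUO. Its log2 change was 2.25 ± 0.18 (adjusted p = 4e-10) and 2.29 ± 0.18 (adjusted p = 1.9e-10). *Cldn1* joined them at a lower level, from 1.71 CPM in Ctrl and 0 in the other 4 control libraries to 10.5, 14.9 and 13.3 CPM in UIR and 13.7, 15.6 and 16.6 in UUO (adjusted p = 3.5e-05 and 1e-05). With 5 of 9 tested members higher and 0 lower in UIR, and 4 higher and 2 lower in UUO, TAL may be read against 18.1 and 14.9% of all its genes in UIR and 20.6 and 17% in UUO.

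Along the rest of the distal tubule the same 3 genes rose. In PC, *Cldn3* went from 41.6, 40.7, 40.3, 51.7 and 49.0 CPM to 392, 181 and 266 in UIR and 479, 328 and 424 in UUO, a log2 change of 2.55 ± 0.22 (adjusted p = 1.9e-07) and 3.09 ± 0.22 (adjusted p = 4.1e-09). *Cldn4* in PC was 68.1, 67.9, 62.0, 79.6 and 66.9 CPM in control, 319, 202 and 284 in UIR and 569, 589 and 467 in UUO, a change of 1.87 ± 0.16 and 2.87 ± 0.16 (adjusted p = 1.7e-07 and 1.6e-10). *Cldn7* in PC rose from 283 ± 22.7 to 743 ± 193 and 1064 ± 178 CPM (log2 1.32 ± 0.16 and 1.82 ± 0.16). No injured PC library overlapped a control library for any of the 3 genes. In this class 3 of 5 tested members rose in each model, where 9.38% of all genes rose in UIR and 16.2% in UUO.

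IC, the acid-base cells of the collecting duct, showed the same 3 rises out of 4 tested members, where 7.63% of genes rose and 8.92% fell in UIR and 10.9% rose and 12.4% fell in UUO. *Cldn3* was 12.4, 22.4, 64.6, 4.27 and 35.7 CPM in control, 222, 243 and 225 in UIR and 382, 374 and 307 in UUO (log2 2.62 ± 0.31 and 3.21 ± 0.31, adjusted p = 1.1e-05 and 4.7e-07). *Cldn4* went from 51.3 ± 24.6 to 199 ± 12.5 and 365 ± 41.3 CPM (log2 1.76 ± 0.25 and 2.60 ± 0.25) and *Cldn7* from 264 ± 40.6 to 765 ± 69.3 and 961 ± 122 CPM (log2 1.21 ± 0.17 and 1.51 ± 0.17), again without overlap.

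In the DCT class *Cldn3* was 3.54, 10.5, 4.14, 9.04 and 16.7 CPM in control, 201, 101 and 198 in UIR and 358, 312 and 336 in UUO. *Cldn4* ran beside it, at 8.25, 13.2, 4.14, 9.04 and 13.4 CPM, then 172, 95.7 and 142, then 376, 381 and 306. The log2 changes were 3.94 ± 0.30 and 4.89 ± 0.29 for *Cldn3* (adjusted p = 2.7e-10 and 8.8e-13), 3.48 ± 0.26 and 4.79 ± 0.24 for *Cldn4*, and 1.94 ± 0.18 and 2.43 ± 0.18 for *Cldn7*. With DCT and CNT cells in 1 class, a comparison added after the data had been seen, they were 3.14 and 4.21 for *Cldn3*, 1.64 and 2.93 for *Cldn4* and 1.70 and 2.29 for *Cldn7* (largest adjusted p = 1.6e-07), so the size of the *Cldn3* and *Cldn4* changes in both models depended on which cells were called DCT. At a clustering resolution of 2 the joined class gave 2.72 and 3.20 for *Cldn3* and 1.39 and 1.596 for *Cldn4*. In the joined class *Cldn8* did not pass in UIR or UUO (-0.04 and 0.09, adjusted p = 0.84 and 0.56). Of 5 tested members, 3 rose in UIR and 4 in UUO in the DCT class, where 17.9 and 22.7% of all genes rose and 17.3 and 21.6% fell.

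CNT, tested in UIR alone, had the smallest distal changes. *Cldn3* rose from 25.3, 16.3, 10.6, 15.4 and 17.2 CPM to 102, 47.8 and 84.9 (log2 1.99 ± 0.27, adjusted p = 6e-07), *Cldn4* from 63.7 ± 14.8 to 125 ± 26.5 (0.92 ± 0.20, adjusted p = 0.00077) and *Cldn7* from 136 ± 27.4 to 297 ± 45.0 (0.99 ± 0.15, adjusted p = 6.2e-06). These are 3 of 4 tested members, where 4.66% of CNT genes rose and 6.56% fell, and the *Cldn4* call was lost without the unnumbered UIR library. In the CNT cluster with 114 control and 95 UIR cells *Cldn3*, *Cldn4* and *Cldn7* went from 23.4, 74.1 and 164 CPM to 88.0, 143 and 326. In the other, shallow one (230 and 102 cells) *Cldn3* went from 3.74 to 39.1 CPM. There *Cldn4* did not rise, at 16.8 and 9.77 CPM, and *Cldn7* was 46.7 and 48.9 CPM. In the thin limb, with 2 control libraries, *Cldn3* rose from 20.2 and 33.5 CPM to 213, 233 and 196 in UIR and 214 and 289 in UUO (log2 2.92 ± 0.32 and 3.12 ± 0.33, adjusted p = 9.9e-05 and 5.7e-05) and *Cldn7* from 202 and 228 to 453, 407 and 465, and 618 and 473 CPM (0.998 ± 0.22 and 1.29 ± 0.24, adjusted p = 0.013 and 0.0037). The *Cldn7* call was lost in UIR without either control library, and in UUO without Ctrl or without the unnumbered UUO library. Thin limb *Cldn4* was 24.2 and 77.0 CPM in control and 90.1 to 135 CPM in the injured libraries and did not pass (adjusted p = 0.1 and 0.055). Of the thin limb markers, *Bst1*, *Fst*, *Corin* and *Cryab* (5919, 3052 and 2602 CPM) were lower in both models, and *Slc14a2*, *Epha7* and *Sptssb* were not. The part of this in the claudin changes was not tested. The thin limb background was 2.48% of genes higher and 2.99% lower in UIR and 2.61 and 3.1% in UUO, with 3 of 8 tested members higher and 1 lower in UIR and 2 higher and 1 lower in UUO. Its 2 clusters changed in share, from 66 and 23 control cells to 110 and 142 in UIR and 50 and 60 in UUO. *Cldn3* was 9.99, 133 and 205 CPM in the first and 88.3, 277 and 361 CPM in the second.

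**Figure D2:**
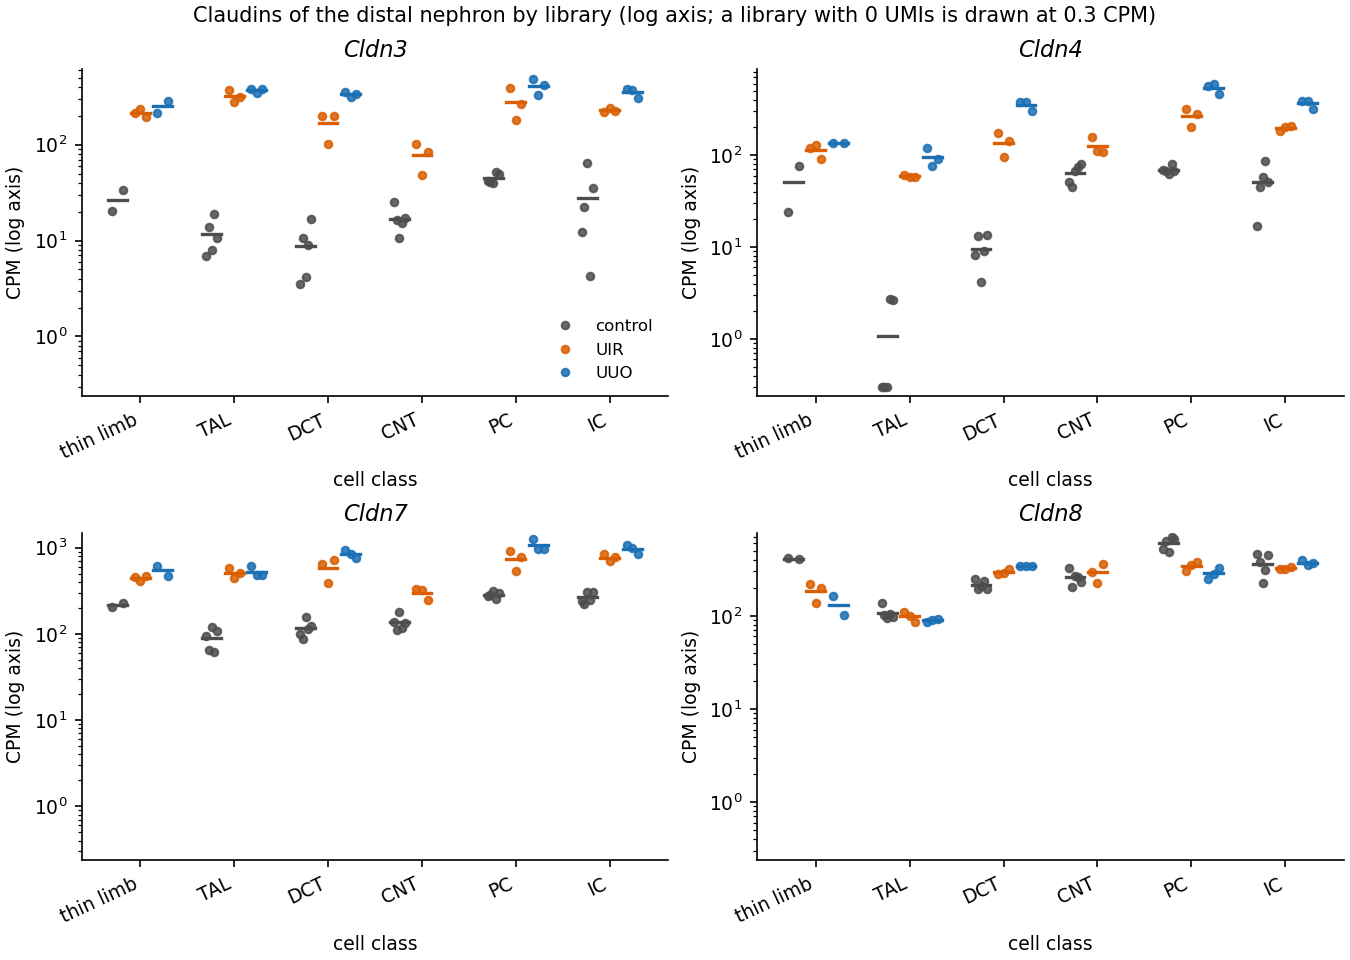
Level (CPM, log axis, a library with 0 UMIs drawn at 0.3) of *Cldn3*, *Cldn4*, *Cldn7* and *Cldn8* in each library, by class and group. For *Cldn3*, *Cldn4* and *Cldn7* in TAL, DCT, PC and IC all injured libraries sit above all control libraries, whereas *Cldn8* in PC runs the other way, from 490.0 to 698 CPM in control to 250.5 to 378 in the injured libraries.

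Most injured cells of TAL and of the DCT class lay in clusters with 0 or 1 control cell, whereas most UIR cells of PC and IC lay in clusters shared with control cells. Within shared clusters the size of the rise varied, and not every gene rose in each. TAL cells of control kidneys lay mostly in 1 cluster (249 of 302), in which *Cldn3*, *Cldn4* and *Cldn7* summed over libraries were 11.3, 1.07 and 92.2 CPM. The 77 UIR cells in that same cluster had 50.3, 3.72 and 138 CPM, and the 8 UUO cells there held 0, 0 and 119 CPM. The largest injured TAL cluster, with 808 UIR and 313 UUO cells and 1 control cell, had 312 and 323 CPM of *Cldn3*, and a cluster with 238 UIR, 358 UUO and 0 control cells had 388 and 407 CPM of *Cldn3* and 136 and 137 CPM of *Cldn4*. A shallow TAL cluster shared by the groups (52 control, 265 UIR and 147 UUO cells, with median depths of 954, 1381 and 1139 UMIs) had *Cldn3* at 0, 176 and 202 CPM, *Cldn4* at 0, 71.0 and 131 CPM and *Cldn7* at 74.3, 293 and 432 CPM, so there the rise was found within 1 cluster. However, *Cldn10* was 74.3, 563 and 207 CPM there, *Cldn16* 18.6, 84.7 and 61.0 and *Cldn19* 55.7, 195 and 202. The main control cluster held *Cldn10* at 587 and *Cldn16* at 162 CPM. Control and injured cells of the shallow cluster were thus not alike in the TAL members either.

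In PC, the cluster with 109 control, 126 UIR and 13 UUO cells had *Cldn3* at 38.8, 100.1 and 185 CPM and *Cldn7* at 295, 370.1 and 666 CPM, while the cluster with 0 control cells (153 in UIR, 220 in UUO) had *Cldn3* at 474 and 536, *Cldn4* at 417 and 578 and *Cldn7* at 1110.0 and 1155 CPM. The largest PC cluster, a shallow one with 96 control, 332 UIR and 223 UUO cells, had smaller differences in UIR, with *Cldn3* at 30.1, 45.0 and 137 CPM, *Cldn4* at 30.1, 66.3 and 94.1 CPM and *Cldn7* at 158, 170.4 and 331 CPM. The IC cluster with most control cells, a shallow one (156 control, 221 UIR and 50 UUO cells), had *Cldn3* at 9.37, 175 and 170.3 CPM, *Cldn4* at 9.37, 90.3 and 157 CPM and *Cldn7* at 106, 629 and 616 CPM, again a rise within 1 cluster. The rise was smaller in the IC cluster with 49 control, 83 UIR and 8 UUO cells, where *Cldn3* was 27.1, 56.3 and 81.5 CPM, and the cluster with 122 UIR and 152 UUO cells alone had 291 and 336 CPM. A DCT cluster with 243 of the 244 control cells had *Cldn3* at 6.48 CPM there and 18.6 CPM in its 30 UIR cells. In the same cells *Cldn4* was 9.15 and 13.3 CPM, and *Cldn7* hardly differed, at 112 and 114 CPM. The cluster of most injured cells of that class had *Cldn3* at 189 CPM in UIR and 339 in UUO and *Cldn4* at 153 and 363 CPM. Cell numbers in some of these groups are small, and the cluster values carry no test.

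Other lists moved with these claudins. The summed TAL markers in TAL fell from 23719 to 30765 CPM in control to 12901 to 13634 in UIR and 7617 to 8667 in UUO, while the summed frTEC list, which holds the injury genes *Krt8*, *Vcam1* and *Havcr1*, went from 157 to 323 CPM to 1481 to 1570 and 1753 to 2345. PC markers in PC went from 18203 to 26651 CPM to 7806 to 9486 and 3305 to 4056. Their part in the claudin changes was not tested. Free RNA was estimated at 4.43 to 12.4% of TAL UMIs in control, 2.51 to 6.08% in UIR and 1.24 to 1.71% in UUO, and macrophages held *Cldn3* at 0.685, 2.65 and 2.24 CPM and *Cldn7* at 2.14, 9.39 and 5.003 CPM in the 3 groups. With cells of over 15% mitochondrial UMIs left out, too few control cells remained in TAL, IC, CNT and thin limb for a test. In the other settings that gave a value the calls of *Cldn3*, *Cldn4* and *Cldn7* in TAL, DCT, PC and IC against control all held. Counts were scaled within each class by edgeR's TMM method, and the median log2 ratio of CPM over expressed genes, which that scaling takes as the baseline, was 0.26 and 0.25 in TAL, 0.34 and 0.38 in DCT and 0.30 and 0.33 in IC, and 0.18 or less in size in the other classes.

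**Figure D3:**
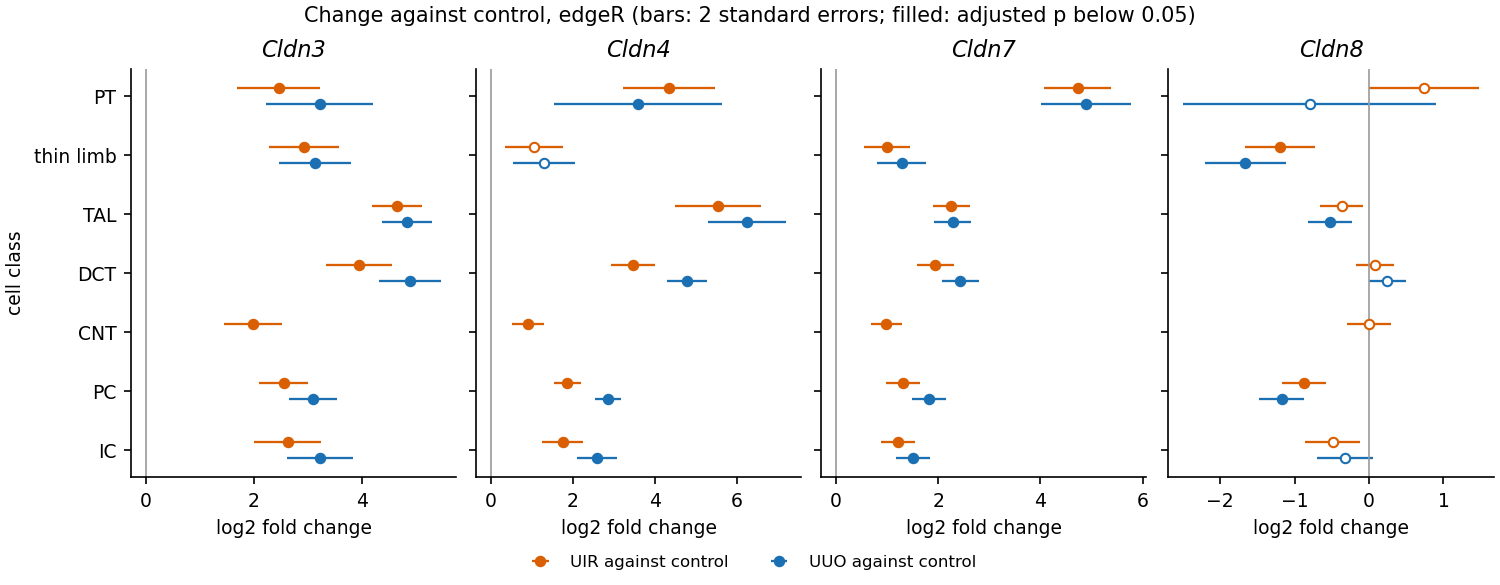
Log2 change against control of *Cldn3*, *Cldn4*, *Cldn7* and *Cldn8* in 7 classes in UIR and UUO, with bars of 2 standard errors and filled points for an adjusted p below 0.05. *Cldn3* and *Cldn7* lie above 0 in all tested classes, at 4.64 and 2.25 in TAL in UIR, while *Cldn8* lies below 0 in PC and thin limb.

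*Cldn8* did not follow its distal companions. In PC, where it was highest, it fell from 521, 631, 490.0, 698 and 663 CPM to 306, 355 and 378 in UIR and 250.5, 281 and 329 in UUO, a log2 change of -0.88 ± 0.15 (adjusted p = 0.00029) and -1.18 ± 0.15 (adjusted p = 4.9e-06) with no overlap. For UIR 8.03% and for UUO 15.4% of all PC genes fell. By cluster the fall was uneven. In the cluster with 109 control, 126 UIR and 13 UUO cells *Cldn8* was 429, 408 and 387 CPM, and in a shallow one with 96, 332 and 223 cells it was 233, 42.6 and 39.5 CPM. A cluster with 103 control, 16 UIR and 0 UUO cells had 820 and 531 CPM, and the cluster with 153 UIR, 220 UUO and 0 control cells had 281 and 282 CPM. It also fell in the thin limb, from 416 and 405 CPM to 218, 138 and 199 in UIR and 161 and 103 in UUO (-1.20 ± 0.24 and -1.66 ± 0.27, adjusted p = 0.0063 and 0.0015), where the UIR call was lost without either control library. In TAL it was 107 ± 17.0, 99.1 ± 12.0 and 89.2 ± 3.27 CPM, a change of -0.37 ± 0.15 in UIR that did not pass (adjusted p = 0.056) and of -0.53 ± 0.15 in UUO that did (adjusted p = 0.0069) but was lost without Ctrl, whose 137 CPM lay far above the 95.8 to 105 of the other control libraries.

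Elsewhere *Cldn8* passed no test. It was 364 ± 96.6, 324 ± 10.4 and 373 ± 24.4 CPM in IC (adjusted p = 0.078 and 0.23) and 259 ± 47.2 and 295 ± 67.2 CPM in CNT (adjusted p = 1). In the DCT class its CPM rose without overlap, from 215 ± 24.2 to 298 ± 18.8 and 343 ± 3.94, but against the scaling baseline of that class the log2 changes were 0.08 and 0.24 (adjusted p = 0.66 and 0.12). The relation of *Cldn7* to *Cldn8*, which were alike over the control classes, was thus altered in PC, where the first rose and the second fell in every injured library.

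Over the class as a whole, the 3 members that define TAL changed far less than the distal set. *Cldn16* was 143, 134, 186, 132 and 189.8 CPM in control, 146, 138 and 143 in UIR and 133, 148 and 102 in UUO. Its log2 change was -0.38 ± 0.16 (adjusted p = 0.064) and -0.53 ± 0.16 (adjusted p = 0.0095), with overlap of the libraries, and the UUO call was lost without UUO2, the library at 102 CPM. *Cldn19* was 205 ± 55.8, 251 ± 13.95 and 241 ± 14.9 CPM and did not pass in either model (log2 0.08 and 0.01, adjusted p = 0.76 and 0.96). *Cldn10* was 548, 775, 644, 459 and 529 CPM in control, 1259, 776 and 982 in UIR and 840.5, 499.7 and 493 in UUO. It rose in UIR by a log2 of 0.55 ± 0.19 (adjusted p = 0.03), a call lost in 6 other settings, and was -0.16 ± 0.20 in UUO (adjusted p = 0.56).

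*Cldn10* also differed between TAL clusters. The cluster of 249 control TAL cells held it at 587 CPM, the largest injured cluster at 1122 in UIR and 889 in UUO, and the cluster with the most *Cldn4* at 585 and 442 CPM. It also differed within the first of these, where the 77 UIR cells held 1171 CPM and the 8 UUO cells 1022. In that cluster *Cldn16* was 162, 87.5 and 85.2 CPM and *Cldn19* 203, 177 and 102 CPM in control, UIR and UUO. In the thin limb, *Cldn10* was 4.04 and 10.0 CPM in control and 53.1, 152 and 185 in UIR (log2 4.11 ± 0.75, adjusted p = 0.0032, from 4 control UMIs) and 61.9 and 25.7 in UUO (2.58 ± 0.92, adjusted p = 0.13), and the UIR call was lost without either control library. Summed TAL markers in the thin limb pools rose as well, from 157 to 288 CPM to 413 to 1164 and 509 to 677, and their part in the result was not tested. *Cldn19* in the thin limb was 114 ± 4.66, 76.2 ± 22.8 and 68.3 ± 27.1 CPM (adjusted p = 0.29 and 0.26), and *Cldn2* there was 201 ± 23.9, 139.9 ± 11.3 and 201 ± 117 CPM (adjusted p = 0.32 and 0.93). The thin limb cluster with 66 control, 110 UIR and 50 UUO cells had *Cldn2* at 235, 245 and 314 CPM. The one with 23, 142 and 60 cells had 22.1, 58.6 and 42.9 CPM, so neither shared the lower class level in UIR. Outside its own segments *Cldn19* was called higher in the DCT class in UUO (1.603 ± 0.46, adjusted p = 0.0063, lost without UUO2), and with DCT and CNT joined (1.82, adjusted p = 0.00035, past the threshold in 12 of 12 other settings that gave a value), where it was 4.55 ± 1.89 CPM in control and 22.2 ± 11.2 in UUO. At a clustering resolution of 2 it gave no value in the joined class. That class held 244 DCT and 344 CNT cells in control, and 228 and 12 in UUO. In the joined class *Cldn10* was lower in UUO (-3.30, adjusted p = 8.1e-05, past in 10 of 10 other settings that gave a value, resolution 2 not among them), but its 6.34 and 0.782 CPM lay below the 11.8 and 3.12 CPM of macrophages, so that it is at or below background. *Cldn19* was also called lower in PC in UUO (-1.86 ± 0.58, adjusted p = 0.019), from 13.9 to 4.01 CPM, and this change turned to 0.06 at a clustering resolution of 2. The counts come from the 3′ end of transcripts and do not separate the variants of *Cldn10* (chr14:118787908-118875489), which begin at separate first exons.

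TAL is known as a mosaic in which *Cldn10* and *Cldn16* tend to lie in different cells. In TAL cells thinned to 1000 UMIs, the share of cells with a *Cldn10* UMI among cells with and without a *Cldn16* UMI was compared in each library with at least 10 positive cells. In control this left 2 libraries, with 0% of 12 positive against 41.7% of 48 negative cells in N2 and 20% of 10 against 38.3% of 47 in AN2. The difference was -16.0, -16.9 and -11.2 percentage points in UIR, UIR1 and UIR2 and -0.854, 8.58 and 6.12 in UUO, UUO1 and UUO2. The share was lower among *Cldn16*-positive cells in both control libraries and all 3 UIR libraries, and higher among them in 2 of the 3 UUO libraries. The mean difference was 15.3 points higher in UIR and 34.6 points higher in UUO than in control, each with p = 0.1 in a two-sided exact permutation test over libraries, the smallest value that 3 against 2 libraries allow. Without N2 the UIR difference was 3.59 points. Without thinning, when *Cldn16*-positive cells were the deeper ones, the means were -6.47, 12.2 and 18.3 points, and with cells thinned to 2000 UMIs, where 4 control libraries qualified, they were -38.6, -14.0 and -7.24 points. The sign in UIR and in UUO thus depends on the thinning. Without thinning the control libraries also differed in sign, at 15.4, 12.6 and 11.5 points in Ctrl, N1 and AN1 and -43.5 and -28.3 in N2 and AN2.

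In PT, *Cldn1*, *Cldn3* and *Cldn7* rose from low levels. *Cldn1* was 5.99, 4.55, 3.86, 5.90 and 5.72 CPM in control, 9.95, 22.6 and 28.9 in UIR and 31.4, 32.9 and 28.4 in UUO, with log2 changes of 1.90 ± 0.22 (adjusted p = 6.7e-06) and 2.36 ± 0.30 (adjusted p = 1.6e-05). *Cldn7* was 1.03 CPM or less in each control library and 21.2, 22.7 and 16.1 in UIR and 41.0, 24.9 and 10.2 in UUO (4.73 ± 0.33 and 4.89 ± 0.44, adjusted p = 1.7e-08 and 3.8e-07). *Cldn3* was 1.42 to 5.72 CPM in control, 11.02, 27.2 and 13.1 in UIR and 45.1, 42.7 and 11.2 in UUO (2.46 ± 0.38 and 3.21 ± 0.49, adjusted p = 0.00015 and 0.00012). *Cldn4* was called higher as well, from 6 control UMIs, at 0.124, 3.25 and 2.30 CPM in the 3 groups. With free RNA subtracted it gave no value in either model, so neither call could be checked against free RNA. The UUO call was lost in 3 other settings. Every injured library lay above every control library for *Cldn1*, *Cldn3* and *Cldn7*, though the PT levels of *Cldn3* and *Cldn7* stayed well under those of the distal classes. In PT 4 of 8 tested members rose in UIR and 5 rose and 1 fell in UUO, where 13.9% of all PT genes rose and 7.34% fell in UIR and 15.5% rose and 11.5% fell in UUO.

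The PT pore genes moved little. *Cldn2* was 179, 138, 131, 149 and 170.1 CPM in control, 158, 214 and 238 in UIR and 226, 278 and 249.9 in UUO, so that UIR overlapped control (log2 0.32 ± 0.12, adjusted p = 0.073) and UUO did not (0.53 ± 0.13, adjusted p = 0.0061, lost without UUO1). *Cldn10* was 299, 281, 226, 274 and 272 CPM, then 285, 240.4 and 255, then 238, 199 and 188, a change of -0.13 in UIR (adjusted p = 0.5) and -0.56 ± 0.13 in UUO (adjusted p = 0.0043). The UUO call was lost when free RNA was subtracted (adjusted p = 0.076). In the 2 segments of PT tested in UIR, *Cldn1* rose in S1 (log2 2.28, adjusted p = 0.00018) and in S3 (1.49, adjusted p = 0.0025), *Cldn7* rose in both (4.24 and 6.002), and *Cldn2* rose in S1 (0.52, adjusted p = 0.03, past the threshold in 6 of 13 other settings), where 11.1% of S1 and 10.6% of S3 genes rose and 7.47 and 11.3% fell. The S1 clusters did not share the change in *Cldn1*. In those with 962, 803 and 577 control cells *Cldn1* was 5.13, 3.03 and 8.27 CPM in control and lower in UIR, at 1.92, 0 and 5.10 CPM (197, 142 and 81 cells), and the S1 cluster with high *Cldn1* in UIR, at 54.6 CPM, held 149 UIR cells and 9 control cells. In a small S1 cluster (22 and 14 cells) it was 0 and 20.1 CPM. All 3 S3 clusters were higher in UIR by a small margin, at 5.81 and 8.23 CPM (368 control and 173 UIR cells), 8.55 and 11.3 CPM (56 and 29 cells) and 37.8 and 44.5 CPM (6 and 183 cells).

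The levels differed between PT clusters. The S3 cluster with 6 control, 183 UIR and 34 UUO cells had *Cldn7* at 0, 142 and 170.5 CPM and *Cldn3* at 37.8, 108 and 129 CPM. The S1 cluster with 9, 149 and 30 cells had *Cldn1* at 0, 54.6 and 46.4 CPM and *Cldn2* at 339, 321 and 318 CPM. In the largest PT cluster, with 1132 control and 575 UIR cells, *Cldn7* was 3.36 and 27.7 CPM and *Cldn3* 2.24 and 19.2 CPM, while its 31 UUO cells held 0 of both. *Cldn7* was low in control and higher in UIR in each of the other clusters with over 300 control cells, from 4.11 to 16.8 CPM (901 and 289 cells), 0.708 to 4.81 (962 and 197), 2.27 to 9.14 (803 and 142), 0.18 to 3.97 (635 and 214), 0.407 to 6.80 (577 and 81), 0.444 to 2.02 (517 and 90), 0.49 to 4.62 (377 and 83) and 1.25 to 10.3 CPM (368 and 173). The macrophage level was 2.14 CPM of *Cldn7* in control and 9.39 in UIR, and in all but 2 of these 8 clusters the UIR value was below it, at or below background, so that no rise is read from those. Free RNA in UIR was estimated at 10.8 to 24.8% of PT UMIs and 8.71 to 16.0% of macrophage UMIs. The 16.8 and 10.3 CPM of the other 2 are thus not shown to exceed the PT background. With free RNA subtracted the *Cldn7* call of the whole class in UIR held (edgeR adjusted p = 0.00068). *Cldn3* was not higher in all of them, with 0 CPM in both groups in the cluster of 901 control cells and 0.757 and 0 CPM in that of 803. The UUO pools rest on 47 to 98 PT cells each. Summed frTEC genes in PT went from 125 to 215 CPM to 718 to 1031 and 1220 to 1460, and thin limb markers from 48.2 to 122 CPM to 321 to 445 and 312 to 447, and their part was not tested.

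The study describes frTECs by stromal and injury genes such as *Vcam1* and *Krt8* and by a decline of mature epithelial markers. It aligns them mainly with the embryonic collecting duct, distal tubule and loop of Henle. In the frTEC class here *Vcam1* was 948 CPM in UIR and 1341 in UUO, against 57.3 and 80.2 in the other classes. *Krt8*, at 399 and 484 CPM, did not set the class apart from the others, at 381 and 528. *Cldn1* was highest in this class. It was 179, 183 and 170.4 CPM in UIR and 137, 174 and 189 in UUO, against 20.5 ± 9.63 and 30.9 ± 2.28 CPM in PT of the same models. *Cldn2* was held at 194 ± 30.4 and 194 ± 15.5 CPM and *Cldn10* at 64.7 ± 9.59 and 63.6 ± 16.5, the latter below every PT library. *Cldn3* was 66.1 ± 31.7 and 69.6 ± 33.1 CPM, *Cldn7* 76.6 ± 22.5 and 75.5 ± 25.1, and *Cldn4* 18.9 ± 7.84 and 19.2 ± 14.8. Of 6 tested members 0 passed between UUO and UIR by edgeR, 0 had an unadjusted p under 0.05 and 0 passed by DESeq2, where 0.00923% of frTEC genes rose and 0.00923% fell.

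The frTEC class was made of a pair of clusters with different claudins. The cluster led by *Tagln*, a gene of contractile cells, with 179 UIR and 105 UUO cells, held *Cldn1* at 211 ± 13.4 and 209.6 ± 21.1 CPM and *Cldn2* at 119 ± 28.1 and 106 ± 13.0 but *Cldn10* at 7.30 and 2.42 and *Cldn3* at 8.70 and 8.38 CPM. The other, with 109 and 97 cells, held *Cldn1* at 151 ± 20.4 and 117 ± 42.1 CPM and, over the 2 libraries of each model with at least 20 cells, *Cldn2* at 278 ± 48.1 and 253 ± 32.8, *Cldn10* at 131 ± 30.4 and 116 ± 26.6, *Cldn3* at 90.3 and 137 and *Cldn7* at 117 and 143 CPM. *Cldn10*, *Cldn3* and *Cldn7* were thus mainly in the second cluster and *Cldn1* in both. The *Tagln*-led cluster scored higher for parietal cell markers (2.61) than for the frTEC list (1.85), although no parietal marker was among its 20 leading genes, so its name is uncertain and *Cldn1*, a gene of parietal cells, cannot separate the possibilities. Its 18 control cells, over 5 libraries, held *Cldn1* at 174 CPM and *Cldn2* at 309 CPM. Elsewhere *Cldn1* was 0 in the 2 control thin limb libraries and 9.44 to 55.8 CPM in the injured ones, at least 4.99-fold higher in UIR over a floor of 3 counts in the group, but did not pass (adjusted p = 0.096 and 0.23), and in podocytes it was 3.08 ± 2.04, 18.8 ± 14.5 and 13.96 ± 8.39 CPM, too low to enter the test.

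**Figure D4:**
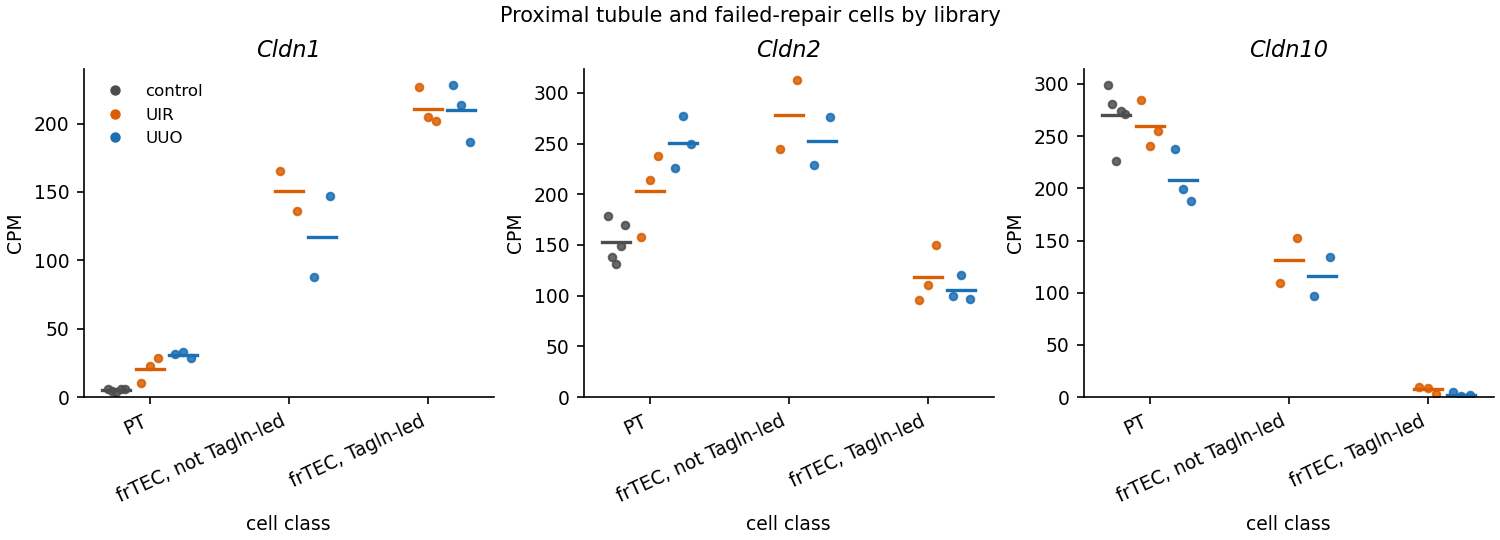
Level (CPM) of *Cldn1*, *Cldn2* and *Cldn10* by library in PT, in frTEC cells outside the *Tagln*-led cluster and in the *Tagln*-led cluster. *Cldn1* is 3.86 to 32.9 CPM in PT and averages 117 to 211 CPM in the frTEC groups. *Cldn10* is 188 to 299 CPM in PT, and averages 131 and 116 in the first frTEC group and 7.30 and 2.42 in the *Tagln*-led one. These are levels of separate classes and not a change from one to the other.

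In podocytes *Cldn5* did not pass the test in either model, with 1187, 1337, 1404, 1320.5 and 1321 CPM in control, 995, 1288 and 1339 in UIR and 1119.6, 1442 and 1334 in UUO. All 3 groups overlapped, and the log2 changes were -0.11 ± 0.12 and -0.05 ± 0.13 (adjusted p = 0.91 in both), where 1.09% of podocyte genes rose and 0.148% fell in UIR and 1.61% rose and 1.3% fell in UUO. The deeper podocyte cluster (221, 182 and 96 cells) had 1301, 1332 and 1408 CPM, and the shallow one (48, 155 and 88 cells) had 838, 633 and 554 CPM. The share of podocytes with a UMI of *Cldn5* was 91.4, 69.7 and 69.0% at median depths of 8641, 4459 and 3622 UMIs, and 72.7, 63.6 and 63.1% after thinning to 1000 UMIs, which left out 20, 84 and 62 cells. In macrophages the unthinned share was 0.236, 0.49 and 0.556%, at median depths of 3212, 1122 and 1092 UMIs. In the endothelium as a whole it was 389 ± 214, 475 ± 83.1 and 416 ± 53.4 CPM, a change of 0.24 ± 0.30 and -0.00 ± 0.30 (adjusted p = 0.86 and 1). Of the 4 members tested in endothelium 0 passed in UIR by edgeR or by DESeq2 and 0 had an unadjusted p under 0.05, where 1.17% of genes rose and 0.965% fell, while *Cldn2* (-2.49, adjusted p = 0.018) and *Cldn10* (-1.78, adjusted p = 0.017) were called lower in UUO, where 5.6% rose and 6.13% fell. The endothelial levels were 4.70 CPM of *Cldn2* and 13.7 of *Cldn10* in control and 0.877 and 4.23 in UUO. Macrophages held 9.13 and 11.8 CPM in control and 1.12 and 3.12 in UUO, so that *Cldn2* in endothelium is at or below background and is not read as expression. The pooled *Cldn10* level was near background as well, but the level was highest in 1 arterial cluster, led by *Aqp1* and *Ptn*, with 35 control, 72 UIR and 60 UUO cells at 83.4, 159 and 29.4 CPM, above the macrophage level. In arterial cells as a whole *Cldn10* was 18.7 ± 13.1, 39.3 ± 18.5 and 9.39 ± 9.46 CPM, and neither model passed against control (adjusted p = 0.582 and 0.342).

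When the endothelium was divided, in a comparison added after the data had been seen, *Cldn5* differed by vessel. Arterial cells had it at 939 ± 421, 1141 ± 385 and 1144 ± 164 CPM, and did not pass (log2 0.22 in both, adjusted p = 0.86 and 0.78). The arterial value depended on the cluster, from 3209 CPM to 136 CPM in control cells of the clusters led by *Mgp* and by *Calca*. In glomerular cells it rose from 29.0, 50.6, 49.5, 73.9 and 15.2 CPM to 91.2, 148 and 196 in UIR and 144, 141 and 144 in UUO, without overlap (1.66 ± 0.28 and 1.63 ± 0.27, adjusted p = 0.00062 and 8.3e-05), where 1.11 and 4.59% of genes of that class rose and 1.06 and 4.64% fell. Control glomerular cells lay mostly in 1 cluster (208 cells, 46.0 CPM), in which 101 UIR cells had 70.0 CPM and 11 UUO cells had 0. A second cluster held 8 control, 192 UIR and 448 UUO cells at 93.8, 173 and 183 CPM, and the other large one held 23, 116 and 248 cells at 15.4, 86.4 and 39.5 CPM. Summed arterial markers in the glomerular pools overlapped between groups, at 198 to 527, 199.7 to 365 and 273 to 409 CPM. Summed peritubular markers there were 823 to 1183 CPM in control, 974 to 1110 in UIR and, without overlap, 1356 to 1522 in UUO, and podocyte markers were lower in both models without overlap, at 1094 to 1165, 685 to 907 and 609 to 734 CPM. The part of either list in the *Cldn5* result was not tested.

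Peritubular capillary cells had *Cldn5* at 16.5, 146, 339, 25.6 and 45.7 CPM in control, 36.2, 82.4 and 69.0 in UIR and 165, 245 and 371 in UUO. UUO was higher than control (1.72 ± 0.42, adjusted p = 0.0036), a call lost without Ctrl (1.07, adjusted p = 0.079) and a value of 2.39 without N2, and higher than UIR (1.97 ± 0.37, adjusted p = 0.00097, past the threshold in 13 of 13 other settings), although N2 lay within the UUO range, and in this class 2.33% of genes rose and 2.45% fell in UIR and 6.56% rose and 6.16% fell in UUO. The level was high in 1 cluster, led by *Ccl21a* and *Aplnr*, with 3 control, 20 UIR and 153 UUO cells at 583, 899 and 632 CPM. In the largest peritubular cluster (21, 354 and 366 cells) *Cldn5* was 0, 13.1 and 24.7 CPM. The peritubular cluster that held most control cells (202 control, 46 UIR and 4 UUO cells) had 63.7, 31.9 and 478 CPM, so that control and injured cells were largely in different clusters. Summed glomerular markers in the peritubular pools were lower in both models, at 413 to 739, 281 to 353 and 235 to 281 CPM. Summed arterial markers there were 187 to 267 CPM in control, 93.3 to 121 in UIR and 196 to 236 in UUO, so that UUO lay above UIR without overlap, as *Cldn5* did. The part of either list was not tested. *Ccl21a* is known from lymphatic and venous cells, and the name of that cluster is therefore uncertain.

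**Figure D5:**
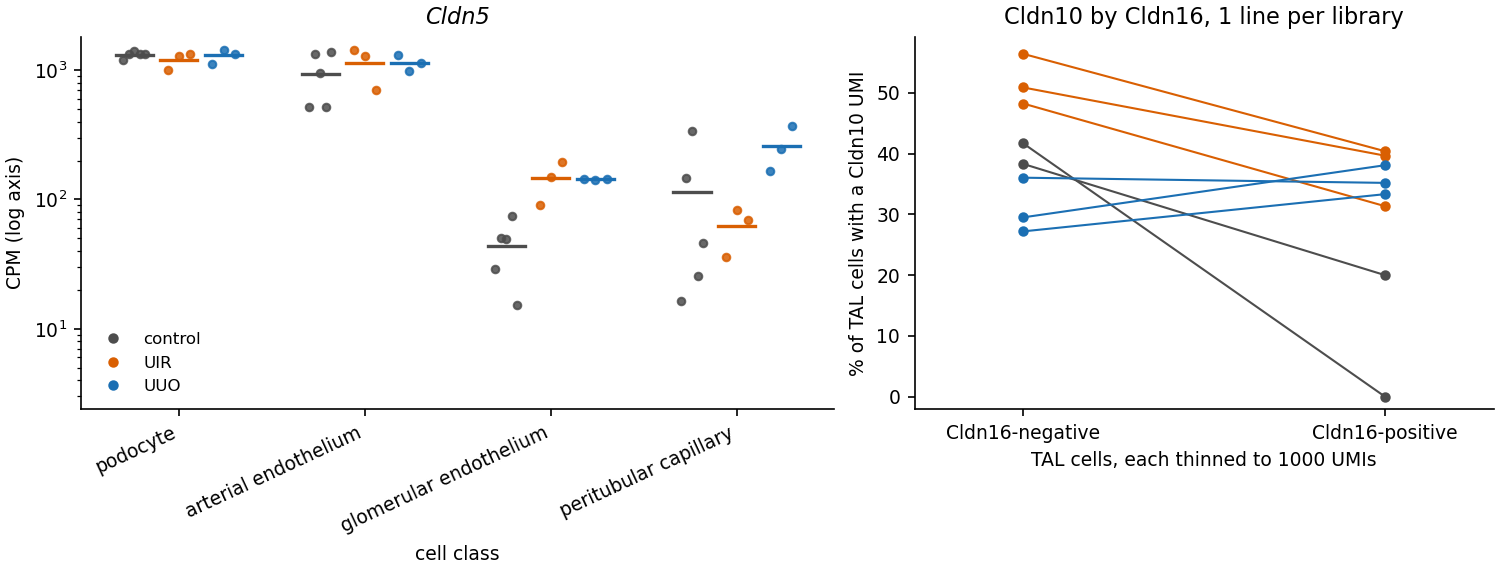
Left, level of *Cldn5* (CPM, log axis) by library in podocytes and arterial, glomerular and peritubular endothelium, with glomerular libraries at 15.2 to 73.9 CPM in control and 91.2 to 196 after injury. Right, percentage of TAL cells, thinned to 1000 UMIs, with a *Cldn10* UMI among *Cldn16*-negative and *Cldn16*-positive cells, 1 line per library, falling to the right in control and UIR and flat or rising in UUO at this thinning.

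The models were compared with each other in 50 pairs of member and class, of which 4 were higher and 1 lower in UUO than in UIR, where 0.78% of all gene tests were higher and 0.857% lower. *Cldn4* was higher in UUO in TAL (log2 0.71 ± 0.16, adjusted p = 0.012), in the DCT class (1.31 ± 0.17, adjusted p = 1.5e-05) and in PC (1.002 ± 0.16, adjusted p = 0.0014), and in each of these classes all 3 UUO libraries lay above all 3 UIR libraries. *Cldn3* was higher in the DCT class (0.95 ± 0.19, adjusted p = 0.0027). The TAL call was lost in 5 other settings, among them without UIR1, without UIR2 and without the unnumbered UUO library. With DCT and CNT joined the differences were 1.29 for *Cldn4* and 1.07 for *Cldn3* (adjusted p = 1.5e-05 and 0.00039), and at a resolution of 2 they were 0.21 and 0.48 (adjusted p = 0.869 and 0.602), so they depend on how distal cells were divided. In the joined class *Cldn7* was also higher in UUO (0.59, adjusted p = 0.027) and *Cldn10* lower (-2.43, adjusted p = 0.014, at background levels), past the threshold in 9 of 13 and 7 of 10 other settings. At a resolution of 2 *Cldn10* gave no value there. *Cldn10* in endothelium was lower in UUO (-2.27 ± 0.41, adjusted p = 0.0045) and was lost when free RNA was subtracted, and in arterial cells alone the difference was -2.05 (adjusted p = 0.0399), past the threshold in 7 of 13 other settings.

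Of the other claudins, 12 of 30 tested pairs of gene and class rose and 0 fell in UIR and 11 of 29 rose and 1 fell in UUO, beside 9.35% of all gene tests higher and 7.95% lower in UIR and 12.8 and 11.7% in UUO. The pairs passed the same filter on low counts, which a pair can pass through its higher group alone. *Cldn23* in TAL, DCT, PC and IC, *Cldn9* in PC (1 control UMI) and *Cldn6* in TAL (3) could hardly be called lower. The counts are therefore not read against those shares. *Cldn23* had 0 UMIs in the control libraries of TAL, DCT, PC and IC and was found in all 4 after injury, at least 14.9-fold higher in UIR and 29.0-fold in UUO in PC when 3 counts over all control libraries are taken as the floor, from 75 and 176 UMIs. *Cldn6*, a claudin of embryonic epithelia, rose in PC from 1.74 CPM to 19.4 and 31.5 (log2 3.33 and 3.97), in the DCT class from 2.16 to 22.0 and 21.1, and in IC from 3.59 to 22.0 and 26.0. In PT, *Cldn34c1* rose from 0.624 CPM to 1.75 and 4.05 (1.44 and 2.54, adjusted p = 0.027 and 0.0051). These low levels rest on 27, 32 and 12 UMIs in the groups and were not set against background.

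Of 29 tight junction genes outside the claudin family, 54 of 205 pairs of gene and class rose and 11 fell in UIR, and 55 of 187 rose and 12 fell in UUO, beside the same shares of all gene tests. Here too a pair could pass the filter through its higher group alone. In TAL 12 of 26 rose and 2 fell in UIR and 13 rose and 2 fell in UUO (18.1% of all TAL genes rose and 14.9% fell in UIR, 20.6 and 17% in UUO), with a median log2 change of 0.41 and 0.50 against 0.07 over all genes in both. In the DCT class 13 of 25 rose in each model, and 2 fell in UIR and 1 in UUO, with medians of 0.67 and 0.85 against 0.04 over all genes. Of all genes of that class 17.9 and 22.7% rose and 17.3 and 21.6% fell. In PC 6 and 10 of 25 rose and 3 and 4 fell, where 9.38 and 16.2% of all PC genes rose and 8.03 and 15.4% fell. The gene with large changes in most classes was *Amotl1*, an angiomotin-like scaffold of the junction, which went from 8.54 CPM to 50.6 and 51.9 in TAL (log2 2.29 and 2.33), from 12.9 to 57.0 and 82.5 in PC (2.03 and 2.54), from 4.44 to 27.8 and 28.3 in IC (2.60 and 2.71) and from 1.005 to 36.1 and 60.5 in the DCT class. In the thin limb the scaffold genes *Tjp1* (-1.37 and -1.61), *Cgnl1* (-1.49 and -2.02) and *Amotl2* (-1.99 and -1.67) fell in both models, and *Ybx3* rose in UIR (0.87, adjusted p = 0.049). *Cgnl1* also fell in both models in TAL (-1.23 and -1.40) and in PC (-0.65 and -0.76), and differences between the classes were not tested. *Lsr*, a gene of tricellular junctions, rose in PT in UUO from 12.7 to 48.2 CPM (1.71, adjusted p = 4.7e-06). In endothelium *Jam2* (1.02 and 0.70) and *Cgnl1* (0.93 and 0.95) rose in both models. Podocytes had 1 call, *Cgnl1* in UUO (-0.80, adjusted p = 0.02).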

How the data were processed

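Single-cell suspensions, made with a cold-active protease, were run on the 10x 3′ platform. Per the labels and the file headers, Cell Ranger 3.1.0 on mm10 made the deposited tables, the raw UMI counts of 28692 genes in every barcode, which carry none of the free RNA and doublet correction that the authors applied for their own analysis. The study's methods name a later version of that software.

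A barcode was called a cell above a fraction 0.1 of the depth at percentile 99 among the deepest 3000, as were barcodes of at least 500 UMIs that differed from the empty droplets of ranks 45000 to 90000 (false discovery rate 0.01, 10000 simulations). Limits were 30% for mitochondrial UMIs, 5% for hemoglobin UMIs and at least 200 genes, and the 7.5% of cells with the highest doublet score were removed. Counts were scaled to 10000 per cell and clustered on 2000 variable genes without claudins, tight junction genes, markers or mitochondrial genes (40 components, 30 within compartments, 20 neighbors, Leiden resolution 1; leidenalg 0.10.2, igraph 0.11.9, Python 3.11.15). Clusters were named from marker lists, by limits chosen once the clusters were known.

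UMIs were summed per library and class of at least 20 cells and tested with edgeR 4.0.16 (R 4.3.3) by quasi-likelihood with TMM scaling, filterByExpr and all 3 groups in 1 fit, at an adjusted p of 0.05 (Benjamini-Hochberg over all genes of the class). The script was tested on simulated data. Alternatives included DESeq2 1.42.0. Intervals and floors cover counting error only. The text names all 10 members, up to 3 genes with the largest called change per class and contrast from the other lists (not all of these are described), and up to 3 genes with the most similar profile per member. The members and lists were chosen with earlier results of these data known. UIR and UUO libraries share numbers that no label ties to a batch, so the numbers were not taken as pairs.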

Additional observations from a re-analysis of the deposited data

Results flagged for a closer look

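Of 27 groups of 5 control libraries looked at, 2 had a library far from the other 4, where chance flags about 1 in 20 groups. *Cldn8* in TAL was 137 CPM in Ctrl and 95.8 to 105 in the others, and *Cldn10* in PC was 52.7 CPM in N2 and 5.59 to 7.56 in the others.

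UUO and UIR differed by the test of the difference itself in 5 pairs of member and class. The log2 difference was 0.71 for *Cldn4* in TAL, 0.95 for *Cldn3* in the DCT class, 1.31 for *Cldn4* in the DCT class, 1.002 for *Cldn4* in PC and -2.27 for *Cldn10* in endothelium, the last with its highest level in 1 arterial cluster (83.4, 159 and 29.4 CPM in control, UIR and UUO).

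*Cldn1* was also counted in classes outside the comparisons. In stroma it was 6.19 ± 1.49 CPM in UUO (SD, n = 3), with 2.02 CPM in UIR and 0 UMIs in control. In dendritic cells it was 7.22 ± 1.99 CPM in UIR and 7.78 ± 2.82 in UUO (n = 3 each), but no control library had 20 of these cells, and the 40 control dendritic cells together held 8 *Cldn1* UMIs, so no change is read from them.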

How the results depend on the processing

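Of 60 calls of a member in a class, 43 held in every setting that gave a value and 17 were lost in at least 1. The counts of called pairs against control were within 1.5 times the reported ones except at a mitochondrial limit of 15%, where 11 in place of 26 passed in UIR and 14 in place of 29 in UUO, with fewer classes left to test. Leaving out 1 library at a time gave 23 to 28 calls in UIR and 26 to 32 in UUO. Between UUO and UIR, 5 calls became 11 with no filter on low counts and 3 at a resolution of 2, where no DCT class was tested, and 5 to 8 when 1 library was left out. The cause of these changes was not tested. With the replicate number as a block, 9 calls were made between UUO and UIR, but no label ties same-numbered libraries to a batch. Their deviations correlated at -0.185 to 0.394, and 13 of 24 UIR libraries by class lay closest to the UUO library of their own number, the unnumbered one in 8 of 8 classes (correlation 0.127 to 0.394 over 9 classes). What the unnumbered libraries have in common was not tested. *Cldn19* in PC in UUO reversed to a log2 change of 0.065 (adjusted p = 0.94) at a resolution of 2.

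Control levels moved by less than their SD in 84 of 90 checks. The difference in *Cldn10* detection by *Cldn16* in TAL against control was 24.6 points in UIR and 31.4 in UUO with cells thinned to 2000 UMIs (p = 0.2 and 0.171) and 18.7 and 24.8 without thinning (p = 0.339 and 0.214), all two-sided exact permutation tests. Shallow control pools, such as TAL with 216668 to 585369 UMIs against 2838940 to 9481556 after injury, limit the precision of low control levels.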
